A study of Mus musculus with 16 samples.

Results

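The Ms4a genes form a cluster that encodes membrane proteins on mouse chromosome 19, and 9 of them (Ms4a1, Ms4a2, Ms4a3, Ms4a4b, Ms4a4c, Ms4a6b, Ms4a6c, Ms4a6d and Ms4a7) were followed here among the 54347 genes of the count table. Members were found by their symbol in the table. The cluster itself was selected on the measured difference between URE and WT libraries, with Ms4a6b and Ms4a6c among the strongest falls, so all differences of members between the genotypes, and whether they passed the fit over all genes, are given as a description that supports nothing by itself, while differences between cell types were tested. RNA was sequenced from bone marrow of C57BL/6 littermates aged 8 to 12 weeks. URE mice lack the upstream regulatory element, an enhancer of Spi1, the gene of the transcription factor PU.1, in all cells of the animal, and WT mice carry it. In both genotypes c-Kit+ cells were pre-enriched and LSK cells (Lin-Sca-1+c-Kit+, stem cells and multipotent progenitors) and GMP (Lin-Sca-1-c-Kit+Cd16/32+, granulocyte-monocyte progenitors) were sorted, with 4 libraries in each of the 4 groups and 16 in all. No group received a treatment.

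MS4A proteins span the membrane several times, and many act beside immune receptors. The best known are Ms4a1, which encodes the B-cell antigen CD20, and Ms4a2, which encodes the beta chain of the high-affinity IgE receptor of mast cells and basophils. Ms4a3 marks granulocyte-monocyte progenitors and their progeny, and the Ms4a4, Ms4a6 and Ms4a7 genes are known from monocytes, macrophages and lymphocytes.

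Total counts lay between 20028302 and 29128858 per library, and CPM stands for counts relative to the library size, which was scaled by TMM. Spi1 checked the labels: it had 69.6 to 165 CPM in WT LSK, 1.16 to 4.48 CPM in URE LSK, 87.6 to 180 CPM in WT GMP and 15.2 to 27.5 CPM in URE GMP libraries. The sorts were checked with lists of 8 LSK and 8 GMP genes: in GMP against LSK, 6 of the former were called lower and 6 of the latter higher in both genotypes. In LSK and in GMP the second principal component separated replicates 1 and 4 from replicates 2 and 3 of both genotypes. Y-linked transcripts marked 3 libraries as male and 1 as female in each WT group, and 1 as male and 3 as female in each URE group. The sexes were alike between genotypes in replicates 1 and 4, so sex and genotype were not balanced. In bulk libraries, fewer cells of a type and less RNA per cell cannot be told apart.

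The 21 Ms4a genes of the table lie on chromosome 19 of GRCm38 between 10962293 and 11640851, a span of 678559 bases, by the GENCODE M21 annotation. From the low-coordinate side, the members stand in the order Ms4a1 (11249675 to 11266241), Ms4a7 (11321039 to 11336146), Ms4a4c (11404770 to 11427246), Ms4a4b (11443553 to 11467055), Ms4a6c (11469366 to 11482192), Ms4a6b (11516512 to 11531256), Ms4a6d (11586604 to 11604849), Ms4a2 (11615523 to 11623719) and Ms4a3 (11629496 to 11640851). Ms4a4c, Ms4a4b, Ms4a6c and Ms4a6b are on the plus strand and the other 5 on the minus strand. Of the 12 Ms4a genes that are no members, 5 had no count in any library and none reached 10 counts, with a highest value of 8 counts.

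Promoter windows of the members were compared in sequence. The RefSeq table of GRCm38.p6 promoters holds 7 of the 9 members, and the 250 bases before the start were searched on both strands for GGAAGT, a motif around the GGAA core that ETS factors such as PU.1 bind. It was found in 6 of these 7 members, or 6 of their 8 windows, and in 19.7% of the 32851 windows of the table. A second Ms4a7 window, at chr19:11334696-11334945, did not hold the motif. Each of the sequences gives 30 bases around it on the strand of the gene, with the motif or its reverse complement ACTTCC in capitals. They lie at chr19:11469337-11469366 (Ms4a6c, plus strand), chr19:11518459-11518488 (Ms4a6b, plus), chr19:11407631-11407660 (Ms4a4c, plus), chr19:11443524-11443553 (Ms4a4b, plus), chr19:11640892-11640921 (Ms4a3, minus) and chr19:11336147-11336176 (Ms4a7, minus).
Ms4a6c: ggactttctgatataGGAAGTacaggcaca
Ms4a6b: ggactttctgatataGGAAGTacaggcaca
Ms4a4c: cttagtcagtggaggGGAAGTcctggcaca
Ms4a4b: tcttagtcagtggggGGAAGTcctgacaca
Ms4a3: taatggtatacttggGGAAGTgggtgggcc
Ms4a7: tgtgtaatcacgagtACTTCCggggaaagc

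The Ms4a6c and Ms4a6b stretches were identical in all 30 bases and belong to a run of 48 identical bases. The motif begins 16 bases before the start in Ms4a6c and 85 bases before it in Ms4a6b, where a second match lies on the opposite strand from base 43. In the Ms4a6b window 106 of the 250 bases belong to an annotated exon of the gene in another transcript. In Ms4a4c it begins at base 15 and in Ms4a4b at base 19, and both windows hold a run of 20 identical bases that ends shortly before it. Ms4a3 has it at base 55, Ms4a7 on the opposite strand at base 15, and in the Ms4a2 window these letters were not found. A related motif, GAGGAA, was present in Ms4a4c and Ms4a4b only (23.3% of all windows), 61 and 64 bases before the start. The joined form GAGGAAGT, which overlaps both, was in no member window (2.44% of all windows). TTNNGCAA, a pattern of C/EBP factors, and the composite element of ETS and IRF factors were in none (9.56% and 2.30% of all windows), and TGTGGT, a RUNX motif, was in 1 (14.0% of all windows). Since the windows of Ms4a6c and Ms4a6b, and those of Ms4a4c and Ms4a4b, share runs of bases, the matches of members are not independent. The share over all windows is given beside them without a test. These matches describe the letters of the windows and show no binding.

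The whole windows of Ms4a6c, Ms4a4c and Ms4a4b are shown because these genes were called lower in both cell types and hold the match within 20 bases of the start. Ms4a7 also has it there and was not called in either. The windows end at the RefSeq start or before the first exon base that GENCODE gives the gene within them, at chr19:11469118-11469365 for Ms4a6c, chr19:11407411-11407660 for Ms4a4c and chr19:11443308-11443552 for Ms4a4b, all on the plus strand, and capitals mark GGAAGT and GAGGAA. The RefSeq start of Ms4a4c lies inside the gene as GENCODE draws it, which begins at 11404770, and so does that of Ms4a6b.
Ms4a6c: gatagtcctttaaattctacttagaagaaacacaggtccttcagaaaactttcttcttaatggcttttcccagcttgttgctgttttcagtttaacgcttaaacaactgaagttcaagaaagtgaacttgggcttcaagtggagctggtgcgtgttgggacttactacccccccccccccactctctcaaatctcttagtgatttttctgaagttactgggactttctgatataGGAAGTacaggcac
Ms4a4c: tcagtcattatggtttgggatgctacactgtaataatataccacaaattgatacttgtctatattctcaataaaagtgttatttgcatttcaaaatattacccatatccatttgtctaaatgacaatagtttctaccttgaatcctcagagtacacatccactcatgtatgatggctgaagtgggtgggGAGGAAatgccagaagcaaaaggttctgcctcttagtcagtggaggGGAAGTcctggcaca
Ms4a4b: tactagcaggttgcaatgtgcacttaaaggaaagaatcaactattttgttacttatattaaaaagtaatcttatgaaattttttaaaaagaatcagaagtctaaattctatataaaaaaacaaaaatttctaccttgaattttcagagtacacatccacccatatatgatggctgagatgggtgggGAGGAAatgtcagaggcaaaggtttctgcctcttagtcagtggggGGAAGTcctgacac

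Ms4a4b, Ms4a4c, Ms4a6b and Ms4a6c, which lie side by side on the plus strand, were lower in URE than in WT mice in both cell types. A gene counted as called when its adjusted p was under 0.05 and its fold change above 1.5. In LSK, 4 of the 9 members were called lower (Ms4a4b, Ms4a4c, Ms4a6b and Ms4a6c) and 0 higher, where 3.76% of the 15154 genes tested were called lower and 2.38% higher. In GMP, 7 of the 9 were called lower (the same 4 with Ms4a2, Ms4a3 and Ms4a6d) and 0 higher, where 3.63% of 13829 genes were called lower and 4.67% higher. No member tested higher at an unadjusted p under 0.05 in either cell type (edgeR), and DESeq2 also called 0 higher. Ms4a1 was too low for a test, so 8 members were tested in each cell type. The 4 libraries of each genotype did not overlap for 5 members in LSK (the 4 called and Ms4a2) and for the 7 called members in GMP, all lower in URE mice. Over all genes tested, 6.91% were lower and 5.67% higher without overlap in LSK, and 7.67% and 7.27% in GMP. Since the members were chosen for these falls, the counts describe them and are no evidence of their own.

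**Figure D1:**
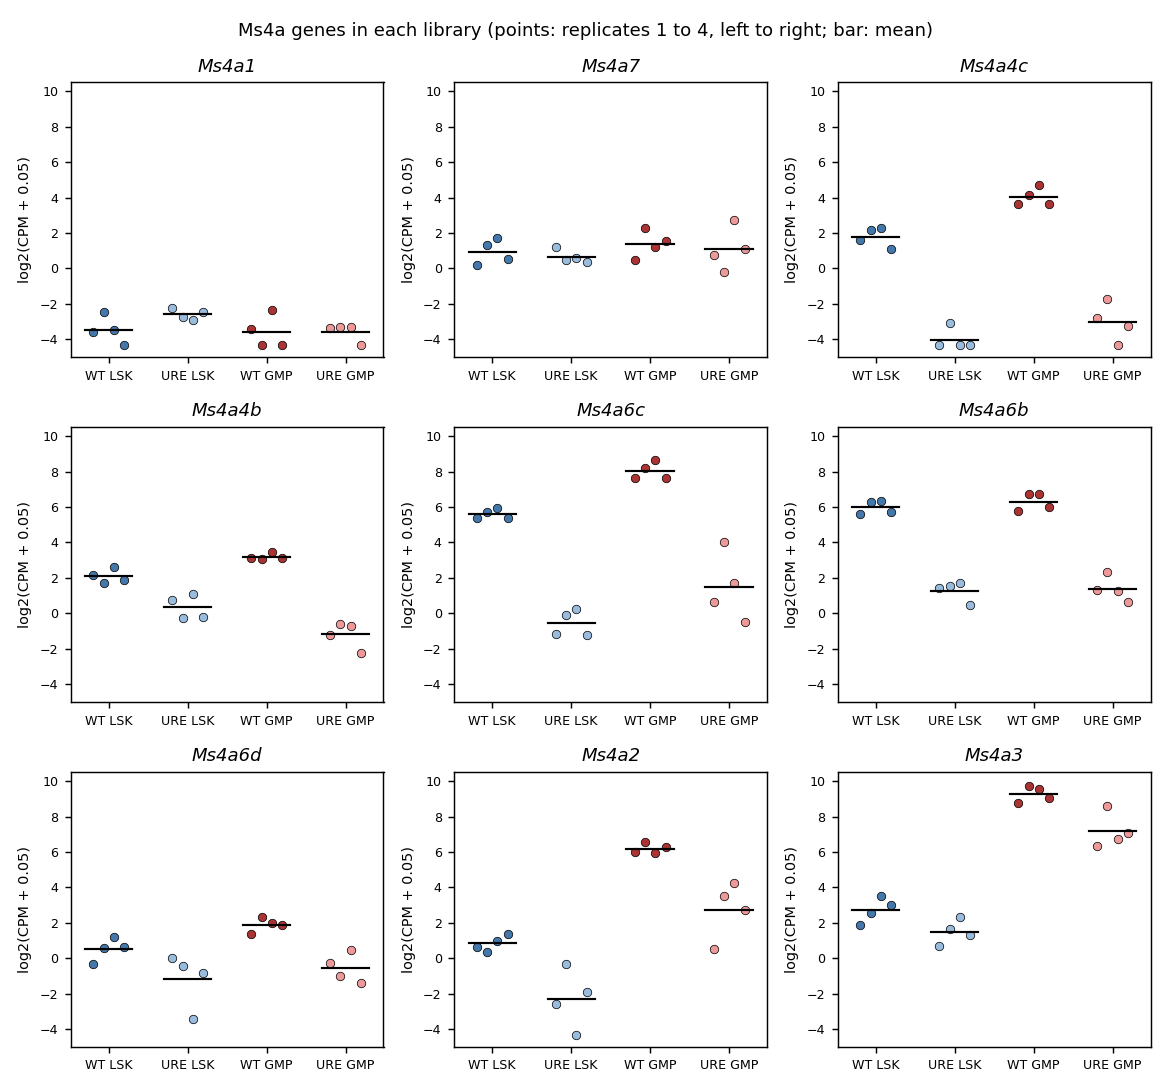
Level of each of the 9 Ms4a genes in the 16 libraries, as log2 of CPM plus 0.05, with one panel per gene in chromosome order, 4 points per group for replicates 1 to 4 and a bar for their mean. Ms4a4c, Ms4a4b, Ms4a6c and Ms4a6b are lower in every URE library than in every WT library of the same cell type, while Ms4a7 overlaps between all groups.

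Ms4a6b had 49.3, 78.9, 82.2 and 52.0 CPM in WT LSK replicates 1 to 4. URE LSK libraries held 2.69, 2.81, 3.21 and 1.33 CPM of it. All URE values were far under the lowest WT value, -4.74 in log2 units (SE, standard error, 0.35), or 26.7-fold. WT GMP libraries had 54.6, 106, 108 and 62.9 CPM of Ms4a6b. URE GMP libraries had 2.41, 5.07, 2.36 and 1.53 CPM. The genotypes again stood apart, by -4.85 in log2 units (SE 0.44), or 28.7-fold. Replicates 2 and 3 were the higher ones in both WT groups, but the log2 difference between genotypes was alike in both pairs of replicates, with -4.72 for 1 and 4 and -4.76 for 2 and 3 in LSK, and -4.91 and -4.82 in GMP.

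Ms4a6c, its neighbour on the same strand, had 40.9, 52.0, 62.7 and 41.1 CPM in WT LSK libraries. Its URE LSK values were 0.401, 0.870, 1.12 and 0.386 CPM. The groups stood apart by -6.16 in log2 units (SE 0.43), or 71.5-fold. In WT GMP it reached 202, 294, 407 and 196 CPM. The URE GMP libraries had 1.49, 16.2, 3.17 and 0.658 CPM, so replicate 2 stood above the other 3 but far below all WT libraries. In GMP the log2 difference was -5.67 (SE 0.96), and -7.26 without URE GMP replicate 2. Within replicates 1 and 4 it was -7.52, and within replicates 2 and 3 -5.17. In that library Spi1 (27.5 CPM against 15.2 to 23.1 CPM) and the summed monocyte progenitor list (1821 CPM against 389 to 772 CPM) were also the highest of the group, and their part in the result was not tested.

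Exons of Ms4a6c share 1088 bases, 53.1% of its exonic length, with BE692007, a noncoding transcript of the opposite strand, and unstranded libraries cannot separate reads of these bases. BE692007 had 4.37 to 9.87 CPM in WT LSK, 0 to 0.521 CPM in URE LSK, 13.5 to 46.0 CPM in WT GMP and 0.110 to 1.61 CPM in URE GMP libraries. It was lower in URE than in WT by -5.29 in LSK and -5.67 in GMP on the log2 scale, and reads of the shared bases may count for either gene. Ms4a6c and Ms4a6b also resemble each other: of the 2020 words of 31 bases in Ms4a6c transcripts, 281 occur in Ms4a6b too.

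Ms4a4c had few counts in URE libraries. WT LSK libraries had 2.96, 4.47, 4.74 and 2.12 CPM, 396 counts together. URE LSK libraries had 0, 0.0669, 0 and 0 CPM, which is 2 counts in replicate 2. The ratio of WT to URE LSK was 183, with an exact 95% counting interval from 50.3 to 1516. WT GMP libraries had 12.5, 17.8, 26.6 and 12.2 CPM, 1493 counts together. URE GMP libraries held 0.0963, 0.251, 0 and 0.0548 CPM, 8 counts together. The ratio of WT to URE GMP was 169, with an exact counting interval from 85.7 to 393, and both intervals cover counting error only. Without URE replicate 2, which held most of the few URE counts, the fitted log2 difference moved from -7.27 to -9.56 in LSK and from -7.32 to -8.26 in GMP. Ms4a4c passed the filter on low counts through its WT libraries alone.

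Ms4a4b is known from T cells. WT LSK libraries had 4.43, 3.19, 6.01 and 3.69 CPM. URE LSK libraries had 1.64, 0.770, 2.08 and 0.814 CPM. The groups did not overlap, and the log2 difference was -1.74 (SE 0.44). WT GMP libraries had 8.57, 8.45, 11.1 and 8.55 CPM. URE GMP libraries had 0.385, 0.602, 0.553 and 0.164 CPM. Here the difference was -4.39 on the log2 scale (SE 0.40), or 20.9-fold. The call in LSK was close to the threshold: it was made in 1 of 8 fits that left out a library, the one without URE LSK replicate 3 (-2.06), and lost without any other library (-1.85 to -1.51). Of the 1747 words of 31 bases in Ms4a4c, 227 occur in Ms4a4b, so some reads could be assigned to either.

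**Figure D2:**
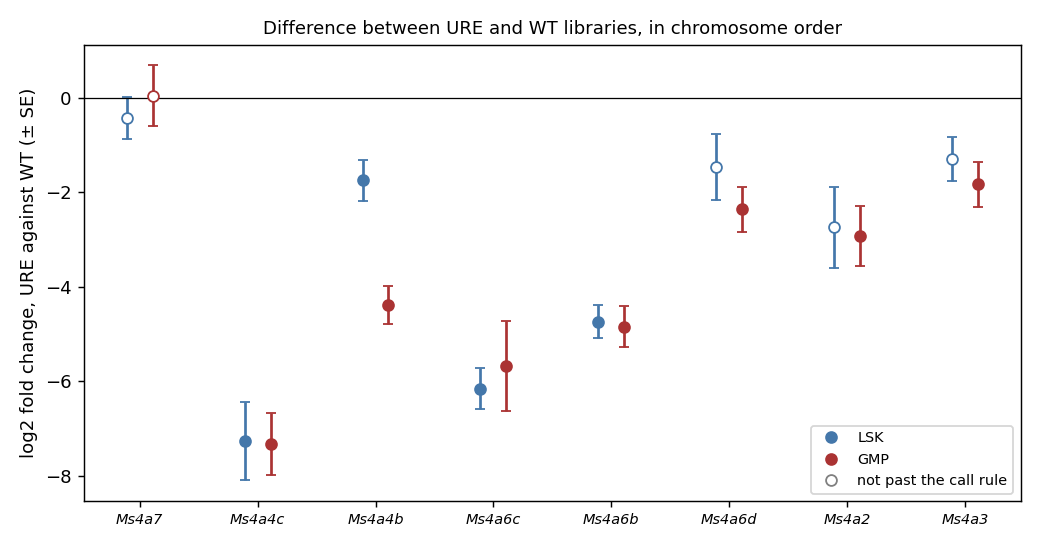
Log2 fold change of URE against WT libraries with its standard error for the 8 members tested, in chromosome order, with LSK and GMP side by side (4 libraries per group) and filled points for members past the call rule. The deepest falls, from -4.74 to -7.32, are those of Ms4a4c, Ms4a6c and Ms4a6b in both cell types and Ms4a7 is near 0.

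Ms4a2 and Ms4a3, at the other end of the cluster, are genes of granulocyte and basophil progenitors and were high in WT GMP. Ms4a2 had 62.8, 93.4, 61.5 and 78.8 CPM in WT GMP libraries. URE GMP libraries had 1.40, 11.2, 18.9 and 6.58 CPM. All were lower than in WT, by -2.92 on the log2 scale (SE 0.63), and -3.52 without URE GMP replicate 3. In LSK the gene was at 1.53, 1.24, 1.95 and 2.52 CPM in WT mice. URE LSK libraries had 0.120, 0.736, 0 and 0.214 CPM, 30 counts together. The LSK groups did not overlap either, but the log2 difference of -2.74 (SE 0.85) was not past the call rule. It was called by DESeq2 (-2.73), in 1 fit of all 16 libraries (-2.68), with replicates 1 and 4 only (-3.63) and without URE LSK replicate 2 (-4.01), which held 22 of the 30 counts. The GMP call was lost without URE GMP replicate 4 (-2.78), WT GMP replicate 2 (-2.83) or WT GMP replicate 4 (-2.88).

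Ms4a3 was the most abundant member in GMP. WT GMP libraries had 436, 828, 762 and 521 CPM. URE GMP libraries had 80.1, 388, 106 and 135 CPM, with replicate 2 nearest to the WT values. The groups did not overlap, with a log2 difference of -1.83 (SE 0.48). In LSK it had 3.58, 5.78, 11.4 and 8.13 CPM in WT mice. URE LSK libraries had 1.56, 3.08, 4.96 and 2.44 CPM, which overlapped with WT. In LSK the log2 difference was -1.29 (SE 0.47) and not called, but it was called with the replicate number as a block (-1.29), and each URE library was below the WT library of its number. In GMP the call was kept in 1 of 8 fits that left out a library, the one without URE GMP replicate 2 (-2.57), and lost without any other library (-1.98 to -1.59).

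Ms4a6d and Ms4a7, which are known from macrophages, were low in all groups. Ms4a6d lay between 0.749 and 2.27 CPM in WT LSK and between 0.0417 and 0.962 CPM in URE LSK libraries, a log2 difference of -1.46 (SE 0.70) that was not called. In GMP it lay between 2.51 and 5.06 CPM in WT and between 0.329 and 1.31 CPM in URE libraries, with no overlap and a log2 difference of -2.36 (SE 0.47). Ms4a7 had 1.11 to 3.26 CPM in WT LSK, 1.24 to 2.24 CPM in URE LSK, 1.32 to 4.76 CPM in WT GMP and 0.803 to 6.63 CPM in URE GMP libraries, and all groups overlapped. Its log2 differences of -0.43 (SE 0.44) in LSK and 0.05 (SE 0.65) in GMP were not called, and the latter was -0.90 without URE GMP replicate 3, which had the 6.63 CPM. The 8 macrophage genes taken as a list had 62.9 to 130 CPM in WT GMP and 36.0 to 134 CPM in URE GMP libraries in sum, and 0 of the 6 tested were called higher and 1 lower.

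Ms4a1, the CD20 gene, had 0 to 4 counts in every library. Its counts summed to 6 in WT LSK, 4 in WT GMP, 12 in URE LSK and 3 in URE GMP libraries. The ratio of WT to URE was 0.462 in LSK (exact 95% counting interval 0.142 to 1.33) and 1.21 in GMP (0.205 to 8.26), so no difference was detectable at this depth.

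Replicates 2 and 3 stood above replicates 1 and 4 for 5 of the 9 members in WT LSK, 5 in WT GMP, 3 in URE LSK and 4 in URE GMP libraries, which 27.6%, 28.4%, 24.8% and 20.3% of 13206 genes did. These genes passed a minimum level that Ms4a1 did not reach. Ms4a1 is among the members counted in WT LSK, on 0 to 4 counts, and in URE GMP, on 0 to 1 counts. The log2 differences between genotypes had the same sign in both pairs of replicates for all called members. For Ms4a2 in GMP they were -4.17 in replicates 1 and 4 and -2.31 in replicates 2 and 3. Ms4a3 had -2.17 and -1.67, Ms4a6d -2.47 and -2.30, and Ms4a4b -4.93 and -4.04. With 2 libraries a group the GMP calls of Ms4a2, Ms4a3 and Ms4a6d were lost in replicates 2 and 3 and kept in 1 and 4. The LSK call of Ms4a4b was lost in both pairs (-1.78 and -1.71).

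**Figure D3:**
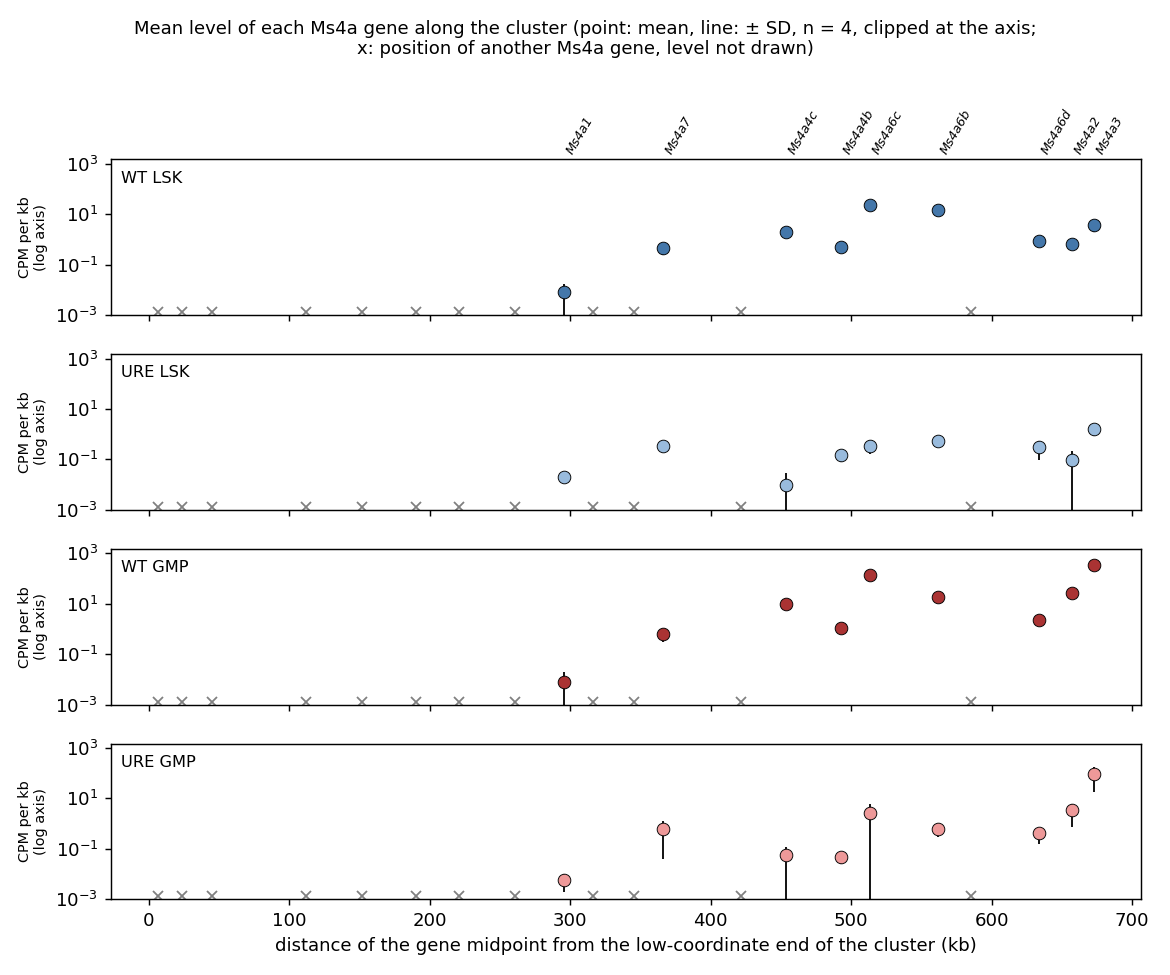
Mean level of each member per kilobase of exon (CPM per kb, log axis) at its distance from the low-coordinate end of the Ms4a cluster, one panel per group, with lines for the SD over 4 libraries and crosses at the 12 other Ms4a genes. The peak around Ms4a6c and Ms4a6b in WT LSK (23.98 and 14.6 CPM per kb) is missing in URE LSK, while Ms4a3 stays the highest member in both GMP groups.

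Levels of different members were set side by side per kilobase of exon annotated in any transcript, so their order depends on that length. It was 4.485 kb for Ms4a6b and 2.05 kb for Ms4a6c. By CPM alone, Ms4a6b (mean 65.6) stood above Ms4a6c (mean 49.2) in WT LSK. Ms4a6c also shares exonic bases with BE692007. In WT LSK, Ms4a6c (23.98 CPM per kb) and Ms4a6b (14.6 CPM per kb) stood above the other members without overlap, and the levels from Ms4a6d to Ms4a7 (0.857 to 0.462 CPM per kb) overlapped between neighbours. In WT GMP the order was Ms4a3 (338 CPM per kb), Ms4a6c (134), Ms4a2 (26.3), Ms4a6b (18.5), Ms4a4c (9.85), Ms4a6d (2.18), Ms4a4b (1.04), Ms4a7 (0.628) and Ms4a1 (0.00764), where Ms4a2 overlapped with Ms4a6b, Ms4a6b with Ms4a4c and Ms4a4b with Ms4a7. In URE LSK no member exceeded the 1.60 CPM per kb of Ms4a3, and from Ms4a6b down to Ms4a4c each level overlapped with the next. In URE GMP, Ms4a3 (94.1 CPM per kb) stayed first, before Ms4a2 (3.38) and Ms4a6c (2.62), whose libraries overlapped. Ms4a6c, first in WT LSK by this measure, was between Ms4a7 (0.353) and Ms4a6d (0.320) in URE LSK with 0.339 CPM per kb.

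Other genes of the wider cluster differed by position. Those tested within the span of the members (11249675 to 11640851) were called lower in URE mice, and those tested beyond it were not. The annotation places 14 other genes inside the cluster, of which 3 had no count, and 2 next to its ends. Of these 16, 4 could be tested in LSK and 4 in GMP. BE692007 (11470166 to 11484578) was the only one called lower in LSK. In GMP, BE692007 and Gm8369 (11485938 to 11512577), which shares 88 of the words of 31 bases in Ms4a4b, were called lower. BE692007 had 0 to 13 counts in URE LSK and 2 to 32 counts in URE GMP libraries, and Gm8369 2 to 3 counts in URE GMP. Both passed the filter on low counts through their WT libraries, where they are high, so these calls are a description only. Gm8369 had 0.646 to 2.76 CPM in WT GMP and 0.0963 to 0.151 CPM in URE GMP libraries. AW112010, a noncoding RNA gene at 11047612 to 11055808, outside the span of the members, had 71.4 to 137 CPM in WT LSK libraries. URE LSK libraries had 61.9 to 138 CPM of it and overlapped completely. In GMP it had 19.9 to 60.1 CPM in WT and 61.0 to 112 CPM in URE libraries, a log2 difference of 1.13 (SE 0.35) that was not called (adjusted p = 0.0855, edgeR). Tmem176a and Tmem176b, related membrane protein genes elsewhere in the genome, differed by 0.00 and -0.39 in LSK and by -0.12 and -0.90 in GMP on the log2 scale, and only Tmem176b in GMP was called.

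Most members were higher in WT GMP than in WT LSK libraries. When WT GMP were compared with WT LSK, a contrast that shares the WT libraries with the differences behind the choice of the cluster, 6 of the 9 members were called higher and 0 lower, where 11.5% of the 14767 genes tested were called higher and 15.8% lower. No member was lower at an unadjusted p under 0.05 (edgeR), and DESeq2 called 0 lower. Ms4a3 rose 88.3-fold (6.46 in log2 units, SE 0.43, adjusted p = 3.2e-05, edgeR). Ms4a2 rose 40.9-fold (5.35 in log2 units, SE 0.30, adjusted p = 1.63e-05, edgeR). Ms4a6c rose 5.60-fold (2.49 in log2 units, SE 0.28, adjusted p = 0.000334, edgeR). For 6 members every GMP library was above every LSK library and for 0 below, where 13.5% of genes were higher and 17.9% lower without overlap.

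Smaller rises were those of Ms4a4c, Ms4a6d and Ms4a4b. Ms4a4c rose 4.84-fold (2.27 in log2 units, SE 0.37, adjusted p = 0.00197, edgeR). Ms4a6d rose 2.54-fold (1.35 in log2 units, SE 0.38, adjusted p = 0.028, edgeR), a call that was lost without WT GMP replicate 2 (1.25) or 4 (1.36), without WT LSK replicate 1 (1.12), 2 (1.34) or 4 (1.36), within either pair of replicates (1.48 and 1.34) and in 1 fit of all 16 libraries (1.36). Ms4a4b rose 2.13-fold (1.09 in log2 units, SE 0.26, adjusted p = 0.0138, edgeR), and this call was lost within replicates 2 and 3 (1.16). Ms4a6b, in contrast, had overlapping levels in both WT cell types, with a log2 difference of 0.34 (SE 0.28, adjusted p = 0.421, edgeR), and no test compared it with Ms4a6c. Ms4a7 had a log2 difference of 0.44 (SE 0.47, adjusted p = 0.539, edgeR).

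**Figure D4:**
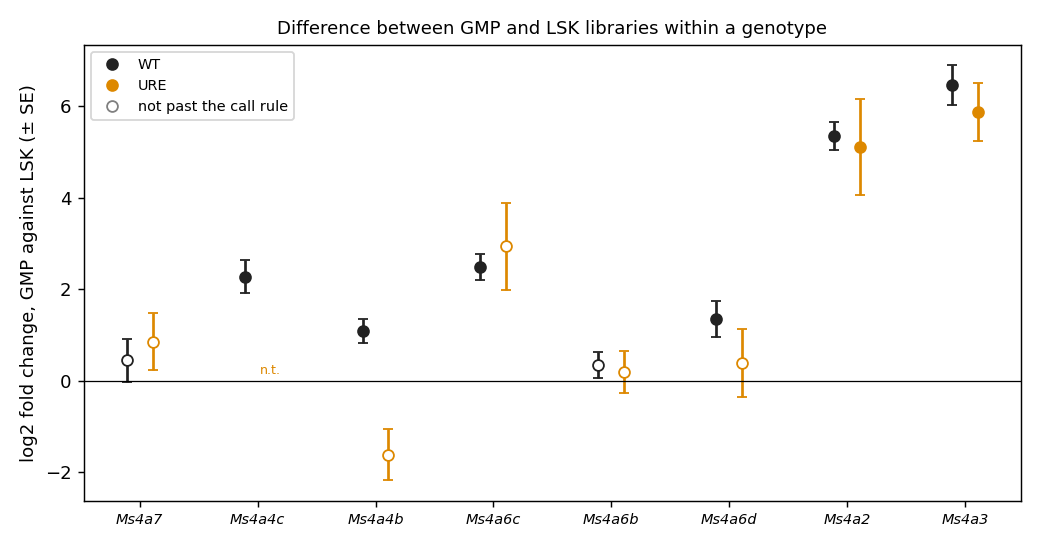
Log2 fold change of GMP against LSK libraries with its standard error for the 8 members tested in WT and the 7 tested in URE mice, in chromosome order, with filled points for members past the call rule and n.t. where a member was not tested. Ms4a2 and Ms4a3 have values above 5 in both genotypes, and Ms4a4b has 1.09 in WT and -1.62 in URE mice.

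In URE mice 7 of the 9 members had enough counts for the comparison of GMP with LSK. This contrast shares the URE libraries with the differences behind the choice of the cluster. Of the 7, 2 were called higher and 0 lower, where 9.20% of the 14395 genes tested were called higher and 12.6% lower. Ms4a3 rose 58.8-fold (5.88 in log2 units, SE 0.64, adjusted p = 0.000383, edgeR). The other, Ms4a2, had a fitted log2 difference of 5.11 (SE 1.06), and 6.41 without URE LSK replicate 2. It passed the filter on low counts through its GMP libraries, where it is high, with 30 counts in URE LSK, so its call is given as a description only. Ms4a6c had a log2 difference of 2.94 (SE 0.95) that was not called. It had 9 to 27 counts in URE LSK and passed the filter on low counts through its GMP libraries. Its values here are therefore a description only as well. The difference was 1.36 without URE GMP replicate 2. It was past the call rule with the replicate number as a block (2.18) and without URE GMP replicate 1 (3.26) or 4 (3.32). Ms4a6b had 0.19 (SE 0.46, adjusted p = 0.811, edgeR). Spi1 was 2.78 higher on the log2 scale in URE GMP than in URE LSK (SE 0.42, adjusted p = 0.00183, edgeR). Ms4a6d and Ms4a7 had 0.39 and 0.85 (SE 0.75 and 0.62) and overlapped between cell types. Ms4a4c was not tested here, and its ratio of LSK to GMP was 0.193 with an exact 95% counting interval of 0.0200 to 0.967. Without overlap, 2 members (Ms4a2 and Ms4a3) were higher and 2 (Ms4a4b and Ms4a1, the latter on 12 and 3 counts) lower in URE GMP, where 11.2% of genes were higher and 15.4% lower.

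Ms4a4b ran the other way. Its URE GMP libraries were all below its URE LSK libraries, a log2 difference of -1.62 (SE 0.56) that was not called. It was past the call rule with the replicate block (-1.61). With 3 to 12 counts in URE GMP, Ms4a4b passed the filter on low counts through its LSK libraries, where it is high. Its values in this comparison are therefore a description only. At an unadjusted p under 0.05 Ms4a4b was the 1 member lower and DESeq2 called it lower as well, which belongs to the same description. Ms4a4b was also the 1 member whose genotype difference was called different between cell types: the effect in GMP minus that in LSK was -2.67 on the log2 scale (SE 0.56), in a fit of all 16 libraries in which, by the adjusted p alone, 0.351% of 15935 genes were called with a negative and 0.866% with a positive value. That call was lost in 10 of the 16 fits that left out a library, where the value lay between -2.73 and -2.42, and kept without URE GMP replicates 2 (-2.89) or 3 (-2.83), URE LSK replicates 2 (-2.86), 3 (-2.35) or 4 (-2.85) and WT LSK replicate 3 (-2.86). For the other 7 members tested the value lay between -0.94 and 0.50 and was not called. Spi1 had 2.64, a smaller loss in GMP than in LSK.

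Ms4a2 was set beside the genes with which its protein works. Of 14 genes of the high-affinity IgE receptor pathway, all were tested in GMP, and 1 was called higher and 0 lower in URE mice, with a median log2 fold change of 0.15 against 0.01 over all genes tested. Vav1, Plcg2, Inpp5d and Lcp2, the most abundant of them, had 0.17, 0.15, 0.26 and 0.94, and Lcp2, which encodes the adaptor SLP-76, was the one called (adjusted p = 0.00613, edgeR). The partner chains of the receptor, named here after their values were seen, were Fcer1g with 87.3 to 208 CPM in WT and 97.1 to 139 CPM in URE GMP libraries and Fcer1a with 2.11 to 7.40 CPM and 0.703 to 4.67 CPM, and both overlapped between genotypes. In LSK, 13 of the 14 genes were tested, with 1 higher and 1 lower. The higher one was Lat2, an adaptor gene (log2 difference 1.02, adjusted p = 0.0284, edgeR). The lower one was Fcer1g, with 30.1 to 55.4 CPM in WT LSK and 8.61 to 23.2 CPM in URE LSK libraries and no overlap (log2 difference -1.63, adjusted p = 0.0239, edgeR).

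Mast cell and basophil genes made up another list. Its 11 genes had 1118 to 1678 CPM in sum in WT GMP and 1101 to 2581 CPM in URE GMP libraries, and of 7 tested 1 was called higher and 1 lower (median log2 fold change -0.05). The most abundant by the mean over all 16 libraries were Cpa3, a mast cell protease (1.11, not called), Hdc, which makes histamine (-0.35, not called), Mcpt8, a basophil protease (1.48, adjusted p = 0.0354, edgeR), and the transcription factor gene Gata2 (-0.01, not called). Prss34, another basophil protease, was the one called lower (-2.42, adjusted p = 0.014, edgeR). In LSK, 2 of the 8 genes tested were called higher in URE mice (Cpa3 by 1.89 and Mcpt8 by 2.11 on the log2 scale) and 0 lower, with a median of 1.68, and the list summed to 77.0 to 163 CPM in WT and 138 to 277 CPM in URE libraries. In WT GMP the mast cell genes Tpsab1 and Mrgprb2 of this list had no count, and in URE GMP Tpsb2, Tpsab1 and Mrgprb2 had none. The monocyte progenitor list of 9 genes had 1624 to 2274 CPM in WT GMP and 389 to 1821 CPM in URE GMP libraries, with 5 genes called lower and 0 higher. Its most abundant genes F13a1, Ly6c2, Irf8 and Ccr2 differed by -2.86 (not called), 1.01 (not called), -2.51 (called) and -2.36 (called). In LSK the sums of that list were 61.7 to 121 CPM and 14.8 to 33.7 CPM with 4 of 8 genes lower. Sums of further lists also moved between genotypes. The 8 dendritic cell genes summed to 175 to 296 CPM in WT and 41.5 to 86.7 CPM in URE GMP, and to 216 to 477 CPM in WT and 90.5 to 214 CPM in URE LSK libraries, without overlap, with 2 of 5 genes tested called lower in GMP and 1 of 6 in LSK. The 10 B-cell genes summed to 398 to 512 CPM in WT and 70.2 to 182 CPM in URE GMP libraries without overlap, with 3 of 5 tested called lower and 0 higher, and overlapped in LSK, with 2 of 6 lower. The lineage antigens of the sort summed to 427 to 522 CPM in WT and 173 to 337 CPM in URE LSK libraries without overlap, and to 248 to 354 CPM and 132 to 247 CPM in GMP, and nearly all of these sums came from Ptprc, which encodes the pan-leukocyte antigen CD45. The 10 neutrophil progenitor genes summed to 54157 to 72432 CPM in WT and 72518 to 153459 CPM in URE GMP libraries, just without overlap, and overlapped in LSK. Most of this sum was Mpo (mean 50535 and 89601 CPM), which was not called (0.85), and 1 of the 10 was called higher and 0 lower in GMP. The 10 T and NK cell genes summed to 581 to 981 CPM in WT and 1343 to 2149 CPM in URE GMP libraries, and overlapped in LSK. Nearly all of it was Nkg7, a cytotoxic granule gene (mean 803 and 1671 CPM), the 1 gene called higher of 4 tested, while the defining T-cell gene Cd3e had no count in either GMP group. The erythroid and megakaryocyte list overlapped in both cell types. The part of these lists in the lower Ms4a levels was not tested.

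**Figure D5:**
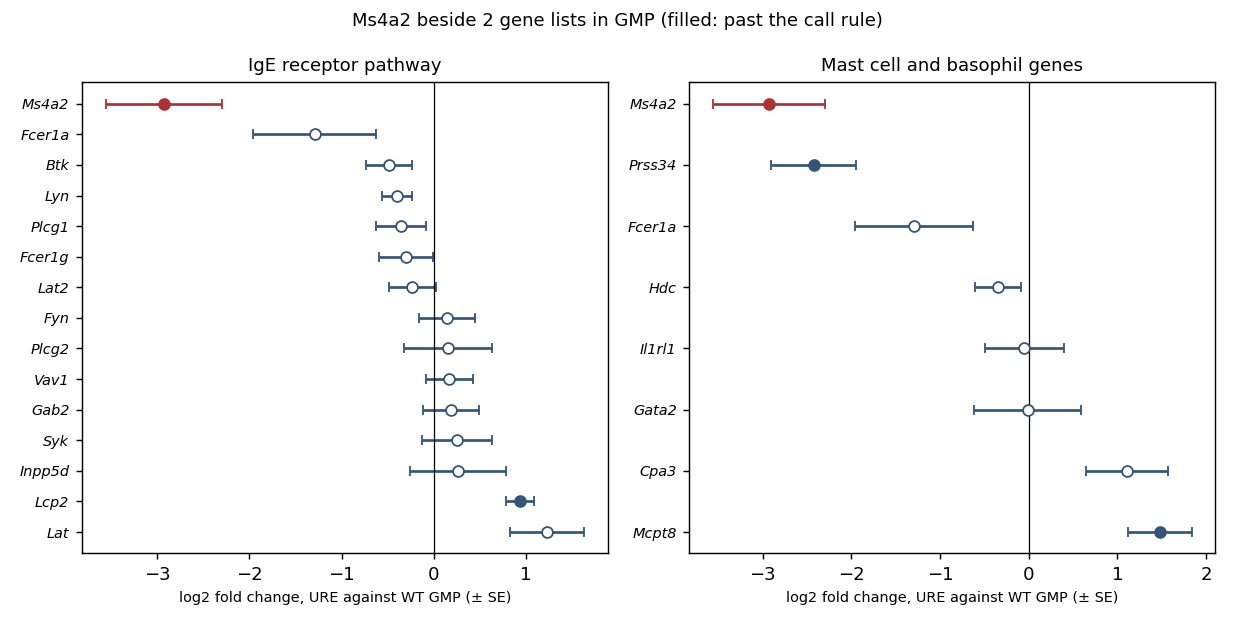
Log2 fold change of URE against WT GMP libraries with its standard error (4 libraries per group) for Ms4a2 beside the tested genes of the high-affinity IgE receptor pathway and of the mast cell and basophil list, with filled points for genes past the call rule. Ms4a2 (-2.92) has the lowest value in both panels and Mcpt8 (1.48) the highest on the right.

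The genes most like each member in pattern were found by the root mean square difference of log2 CPM, each gene centred on its mean, over the 16 libraries and among 9069 genes outside the family whose average log2 CPM was 3 or more. This is a description that includes the genotype difference. Ms4a6b was most like Fgd2 (0.81), Cnn3 (0.84) and Ebi3 (0.88), and Spi1 was at 1.16, where the median gene was at 2.49. Ms4a6c was most like BC035044 (1.21), Ifi209 (1.37) and Cd300a (1.43), with Spi1 at 1.63 and the median gene at 3.50. Ms4a4b was most like Lpcat2 (0.54), Gm42031 (0.72) and Milr1 (0.76), the last an inhibitory receptor gene of mast cells. The median gene was at 1.76 and Spi1, at 1.71, was hardly nearer. Ms4a3 was most like Igsf6 (0.68), Anxa3 (1.01) and Hdc (1.02), with Spi1 at 2.82 and the median gene at 3.24. Ms4a2 was most like F13a1 (1.23), Prss34 (1.29) and Tifab (1.30), with Spi1 at 2.21 and the median gene at 3.13. Ms4a7 was most like Ccr3 (0.46), Fcna (0.48) and Vamp5 (0.48), but the median gene was at 0.88, and Spi1 at 2.28. Ms4a1, Ms4a4c and Ms4a6d were too low for this search.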

How the data were processed

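RNA-seq was carried out by the authors on sorted LSK and GMP, with 4 mice per genotype and cell type. Up to 10 ng of RNA was made into unstranded libraries without molecular identifiers. The authors quantified reads with Salmon (GRCm38, per the submitters' processing notes), summed transcripts to genes with tximport and deposited estimated counts, not normalized and already whole numbers. The annotation release is not given in the sources used here.

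Identifiers were matched to GENCODE M21 (54094 of 54347 found). Counts were scaled by TMM, filtered with filterByExpr and tested over all genes with edgeR 4.0.16 (quasi-likelihood test, Benjamini-Hochberg adjustment; R 4.3.3, limma 3.58.1), with the thresholds of the study's methods, which used DESeq2. Each comparison used its 8 libraries, the interaction all 16. CPM use TMM library sizes, and log2 CPM a prior count of 2. Counts cover counting error only, and a total of 3 counts was taken as the floor. Names were taken by rule: all members, Spi1, overlapping genes, called genes in the cluster, the 4 most abundant genes of each list and the 3 most like genes per member. The members and lists were chosen with earlier results of these data known.

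Replicate numbers come from the labels. Across 13206 genes, deviations of same-numbered libraries from their group means correlated with r of 0.28 or more in all 4 comparisons. Between genotypes, differently numbered libraries within replicates 1 and 4 or 2 and 3 had a similar mean r, 0.302 in LSK and 0.310 in GMP. The best match was the own number for 7 libraries in LSK and 6 in GMP, and for 8 in both maturation comparisons. The numbers were taken to pair the samples, and a fit with the number as a block was also made. The labels do not say whether LSK and GMP of one number came from one mouse. Replicates of a group differed by a chi-square of at least 32.4 per degree of freedom, so each was counted as a sample. The fits were tested on simulated data. Alternatives were DESeq2 1.42.0, RLE size factors, no filter, 1 fit of all libraries, the block, other fold minimums, replicates 1 and 4 or 2 and 3 alone, and leaving out each library. Promoter windows came from RefSeq. Plots used matplotlib 3.10.9.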

Additional observations from a re-analysis of the deposited data

Results flagged for a closer look

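Outlying libraries were looked for in 38 groups of 4 libraries (each member, BE692007 and Spi1 where a library had at least 10 counts), by the gap of an end value to its neighbour relative to the range. Chance flags about 1 in 20 groups, and 3 stood out. Ms4a6c had 16.2 CPM in URE GMP replicate 2 (322 counts) while the remaining URE GMP libraries had 0.658 to 3.17 CPM. BE692007, which shares exonic bases with it, had 1.61 CPM in the same library (32 counts) against 0.110 to 0.151 CPM. Ms4a4b had 11.1 CPM in WT GMP replicate 3, above the 8.45 to 8.57 CPM of the remaining WT GMP libraries. The fall of Ms4a4b in URE mice was larger in GMP than in LSK, by -2.67 on the log2 scale, which passed the threshold in a fit of all 16 libraries. It uses the libraries and the contrast that led to the choice of the cluster and is a description.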

How the results depend on the processing

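Of 641 alternative values for the members, 554 kept both direction and call, 46 lost the call, 14 gained it and 27 changed sign, and 18 of the 39 member results kept both throughout. The log2 differences of Ms4a4c, Ms4a6b and Ms4a6c between genotypes lay between -9.56 and -4.53 over the alternatives, which is no sign of stability since the cluster was chosen for such falls. The number of members lower in URE GMP was 4 with replicates 2 and 3 only, and 5 to 7 when single libraries were left out. The number lower in GMP than LSK of URE mice was 1, in place of 0, with DESeq2, with 1 fit of all 16 libraries and with the replicate block, and the number with a more negative effect in GMP was 0, in place of 1, within either pair of replicates and 0 to 1 with a library left out. Pairing by the replicate block turned Ms4a7 in GMP to -0.20 and called Ms4a3 in LSK (-1.29), Ms4a6c (2.18) and Ms4a4b (-1.61) in URE maturation, and changed no other call of a member. The calls of Ms4a6c and Ms4a4b are a description only, since each passed the filter on low counts through the cell type where it is high. The Ms4a4b call in LSK was lost with RLE size factors (-1.71) and with no filter (-1.74), and the Ms4a3 call in GMP with RLE size factors (-1.82). Counts over all genes (higher, lower) moved by over 1.5 times in these fits. In LSK they were 360 and 570, with DESeq2 677 and 955, with the block 581 and 852, without WT LSK replicate 2 206 and 359, without WT LSK replicate 4 219 and 387, and with replicates 2 and 3 only 157 and 229. In GMP they were 646 and 502, with DESeq2 1112 and 887, with the block 1317 and 943, without URE GMP replicate 4 395 and 320, and with replicates 2 and 3 only 56 and 52. In WT maturation they were 1702 and 2335, with the block 2335 and 3706, with replicates 2 and 3 only 1277 and 1230, and 872 and 1971 at a fold minimum of 2. In URE maturation they were 1325 and 1808, with replicates 1 and 4 only 2034 and 2188, with replicates 2 and 3 only 363 and 447, and 882 and 1533 at a fold minimum of 2. The interaction gave 138 and 56, DESeq2 414 and 258, the block 632 and 415, replicates 1 and 4 only 137 and 37, replicates 2 and 3 only 1 and 1, no filter 103 and 36, and fits without 1 library from 66 and 18 (without URE GMP replicate 4) to 188 and 95 (without URE GMP replicate 3).

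Signs turned as follows where no call was made, and the cause was not tested. With replicates 1 and 4 only, Ms4a7 was 0.41 in LSK and -0.19 in GMP, Ms4a6d -0.35 in URE maturation, and the interaction 1.65 for Ms4a4c, -0.80 for Ms4a6c and -0.61 for Ms4a7. DESeq2 gave 0.11 for the interaction of Ms4a4c. With each library left out, Ms4a7 ranged from -0.90 to 0.39 in GMP, and in URE maturation Ms4a6b ranged from -0.24 to 0.40, Ms4a6d from -0.080 to 0.80 and Ms4a7 from -0.050 to 1.17. The interaction ranged from -0.83 to 1.05 for Ms4a2, -1.05 to 2.06 for Ms4a4c, -0.57 to 0.069 for Ms4a6b, -1.12 to 0.84 for Ms4a6c and -0.48 to 0.79 for Ms4a7. Depth limits Ms4a1 and Ms4a4c, which had at most 5 counts in a URE library.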

Other observations

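Genes between and beside the Ms4a genes also differed between WT cell types. BE692007 was higher in WT GMP than in WT LSK by 1.99 on the log2 scale (SE 0.42, adjusted p = 0.00723, edgeR), like Ms4a6c, with which it shares bases. Gm8369 was higher by 1.75 (SE 0.53), with 7 to 22 counts in WT LSK. It passed the filter on low counts through its GMP libraries, where it is high, so its call is a description only. Ccdc86, just outside the low-coordinate end, was higher by 0.79 (SE 0.23, adjusted p = 0.0317, edgeR). AW112010 ran the other way with -1.35 (SE 0.35, adjusted p = 0.0183, edgeR). In URE mice BE692007 and Gm8369 were too low to test, and Ccdc86 (0.21) and AW112010 (-0.22) were not called. Tmem176a and Tmem176b, relatives outside the cluster, were lower in GMP than in LSK in both genotypes, with -0.69 and -0.64 in WT and -0.86 and -1.19 in URE mice.

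Fcer1a, the alpha chain of the IgE receptor, was named after its values were seen. It had 0.1302 to 0.403 CPM in WT LSK, 2.11 to 7.40 CPM in WT GMP, 0.0401 to 2.78 CPM in URE LSK and 0.703 to 4.67 CPM in URE GMP libraries. Fcer1g, the gamma chain, also named after its values were seen, was higher by 1.69 in WT (SE 0.32, adjusted p = 0.00446, edgeR) and by 2.96 in URE mice (SE 0.33, adjusted p = 0.000404, edgeR).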
